A study of Mus musculus with 4 samples.

Results

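The S100 genes described here are the 10 whose symbols are S100a1, S100a4, S100a6, S100a8, S100a9, S100a10, S100a11, S100a13, S100a14 and S100a16, taken by name from a table of 56953 mouse genes. All 10 were found and all 10 passed the filter on low counts, among 11388 genes tested. RNA came from dorsal skin of wild-type C57BL/6J mice, full-thickness per the labels, after 3 days of topical treatment. A pair of libraries was made from mice given NEDD8i at 10 µM, a compound known here by that label alone, and another pair from mice given the solvent DMSO. Libraries were of a 3′ tag type, which reads the end of each polyadenylated transcript. The mice's age and sex are not given in the sources used here, nor is it said whether the 2 replicates of a group were separate animals, so p-values cover only the variation among these libraries, part of which may be technical.

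S100 proteins are small calcium sensors that carry a pair of EF-hand loops and work mostly as dimers. On binding calcium most of them expose a surface that grips a target, such as an annexin, a myosin or a receptor. In mouse and human most of their genes sit beside the epidermal differentiation complex, the stretch that also holds the cornified envelope genes. Several are made by keratinocytes at rest, and S100A8 with S100A9 is widely used as a sign of irritated or inflamed epidermis.

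Library totals ran from 5639791 to 8856572 counts, of which 52.6% to 61.7% fell on 3 ribosomal RNA genes. Levels are given in CPM, the usual scaling of counts to a library of fixed size with TMM factors, so that 3 reads, the floor used here, stood for 0.359 to 0.541 CPM. Keratinocyte markers were abundant: 6 basal genes summed to 2956 and 5606 CPM in DMSO replicates 1 and 2, and to 4991 and 4273 CPM in NEDD8i replicates 1 and 2. The 5 endothelial markers had only 2 to 13 reads per library, and 8 dermal fibroblast markers summed to 8.48 to 74.2 CPM, which is little for a full-thickness sample. The fibroblast list had a median log2 fold change of 2.23 over 6 tested genes, of which Dpt was called higher (log2 fold change 3.29, edgeR adjusted p = 0.0446) and Dcn and Col6a1 had negative values, and the part of dermal cells in the S100 values was not tested. DMSO replicate 1 stood apart by its hair RNA, with 6623 CPM over 12 hair shaft and root sheath genes against 20.8 CPM in DMSO replicate 2 and 15.8 and 424 CPM in NEDD8i replicates 1 and 2. In bulk tissue, fewer cells of a type and less RNA per cell cannot be told apart.

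As a group the 10 genes took a larger share of the reads after NEDD8i. Of reads outside ribosomal RNA they held 0.549% in DMSO replicate 1 (exact 95% binomial interval 0.54 to 0.557) and 0.545% in DMSO replicate 2 (0.536 to 0.555). The share was 0.999% in NEDD8i replicate 1 (0.989 to 1.01) and 0.788% in NEDD8i replicate 2 (0.779 to 0.798). Both NEDD8i libraries thus lay above both DMSO libraries, and the gap between the NEDD8i libraries was far wider than that between the DMSO libraries. Intervals cover counting error only and not the variation between libraries. No collapsing of reads to molecules is stated, and repeated reads of 1 molecule would make the intervals too narrow even for counting error. Most of these reads came from 2 genes, S100a6 with 37.2% to 46.7% of them and S100a14 with 26.3% to 33.3%.

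S100a8 was the member that passed the test. Its log2 fold change was 2.28, a 4.86-fold rise, and 1 of the 10 members was called, higher, against 0.782% of all 11388 genes called in either direction, 0.667% called higher and 0.114% called lower (edgeR quasi-likelihood test, Benjamini-Hochberg adjusted p at or under 0.05). All 10 members had a positive log2 fold change, compared with 49.9% of tested genes, though in 2 of them the value lay near 0. Both NEDD8i libraries were above both DMSO libraries in 7 members, compared with 25% of tested genes. At an unadjusted p under 0.05, S100a6, S100a8, S100a9 and S100a10 were higher, 4 of 10 against 8.62% of tested genes. The median log2 fold change was 0.65 over the members and -0.003 over all tested genes. The count of members called turned on single libraries: it was 4 when either DMSO library was left out, 0 when NEDD8i replicate 1 was, and 1 when NEDD8i replicate 2 was. In those fits 10.4% (DMSO replicate 1 left out), 10.7% (DMSO replicate 2), 0.368% (NEDD8i replicate 1) and 0.387% (NEDD8i replicate 2) of all tested genes were called. The members were chosen with earlier results of these data known, most sit close together, and all share libraries. These counts therefore describe the members, are not separate tests and give no independent support for a rise of the group.

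**Figure D1:**
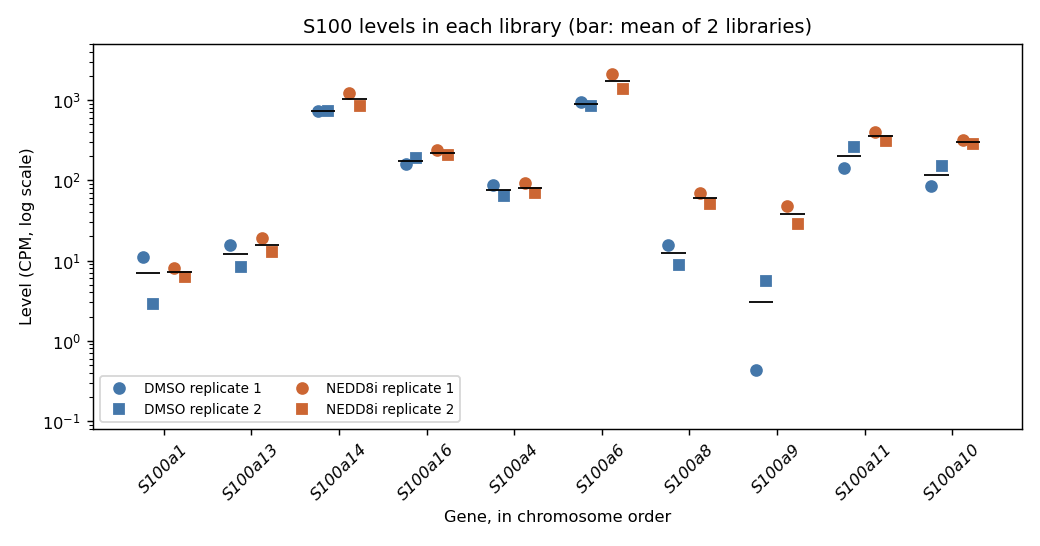
Levels of the 10 S100 genes in CPM (log scale) in each of the 4 libraries, with genes in chromosome order and a bar at the mean of each group's 2 libraries. S100a8 and S100a9 have the widest distance between groups, and S100a9 in DMSO replicate 1 lies at 0.427 CPM, against 5.59 CPM in DMSO replicate 2.

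S100a8 and S100a9 encode the partners of calprotectin, a dimer that withholds zinc and manganese from microbes and, outside the cell, acts as an alarm signal. S100a8 (ENSMUSG00000056054.10, chromosome 3, 90576285 to 90577342, plus strand, in the deposited coordinates, taken to be GRCm39) had 110 and 49 counts in DMSO replicates 1 and 2 against 558 and 424 in NEDD8i replicates 1 and 2. In CPM these were 15.7 and 8.84 against 69 and 50.8, or 12.3 ± 4.83 in DMSO and 59.9 ± 12.9 after NEDD8i (mean ± SD, n = 2 each). Every NEDD8i value was more than 3 times every DMSO value. The log2 fold change of 2.28 had an SE of 0.37, a 95% interval of 1.45 to 3.11 and an edgeR adjusted p of 0.0347, which made it number 53 of the 89 called genes by p. The call was narrow: it was lost with limma-voom (adjusted p = 0.0744), with library totals in place of TMM (edgeR adjusted p = 0.0707), without the robust option (edgeR adjusted p = 0.0684) and without NEDD8i replicate 1 (log2 fold change 2.06, edgeR adjusted p = 0.122). Without DMSO replicate 1, the hair-rich library, it was 2.75 (edgeR adjusted p = 1.8e-09), from a fit in which the spread comes from the NEDD8i pair alone. Over all 14 alternatives the log2 fold change stayed between 1.95 and 2.75 and the adjusted p ran from 1.8e-09 to 0.122.

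S100a9 (ENSMUSG00000056071.13, chromosome 3, 90599939 to 90603028, minus strand) had 3 and 31 counts in DMSO replicates 1 and 2 against 388 and 237 in NEDD8i replicates 1 and 2. These were 0.427 and 5.59 CPM against 48 and 28.4 CPM, so that the groups did not overlap, and by ratio the DMSO libraries lay further from each other than in any other member. Its log2 fold change was the largest of the 10, at 3.71 (SE 1.05, 95% interval 0.93 to 6.50), and it did not pass (edgeR adjusted p = 0.206). In fits with 1 DMSO library left out the value was 2.75 without replicate 1 (edgeR adjusted p = 4.29e-08) and 6.45 without replicate 2 (edgeR adjusted p = 3.37e-23). Those fits have 1 DMSO library and so no spread within DMSO, and over all 14 alternatives the adjusted p ran from 3.37e-23 to 0.857. Of all tested genes, 0.386% had a larger log2 fold change than S100a9 and 1.27% a larger one than S100a8.

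The balance within the pair set one library apart. S100a9 made up 38.8% of the reads of both genes in DMSO replicate 2 (exact 95% binomial interval 28.1 to 50.3), 41% in NEDD8i replicate 1 (37.9 to 44.2) and 35.9% in NEDD8i replicate 2 (32.2 to 39.6). In DMSO replicate 1 the share was 2.65% (0.551 to 7.56), an interval that meets none of the others. As a ratio of reads, S100a8 stood to S100a9 at 1.58, 1.44 and 1.79 in DMSO replicate 2 and NEDD8i replicates 1 and 2, and at 36.7 in DMSO replicate 1, where the 3 reads of S100a9 leave an interval of 12.2 to 180.5. DMSO replicate 1 was also the library with more S100a8 of the DMSO pair, so the partners ran in opposite order between the DMSO libraries. The comparison is one of libraries, not of treatments.

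**Figure D2:**
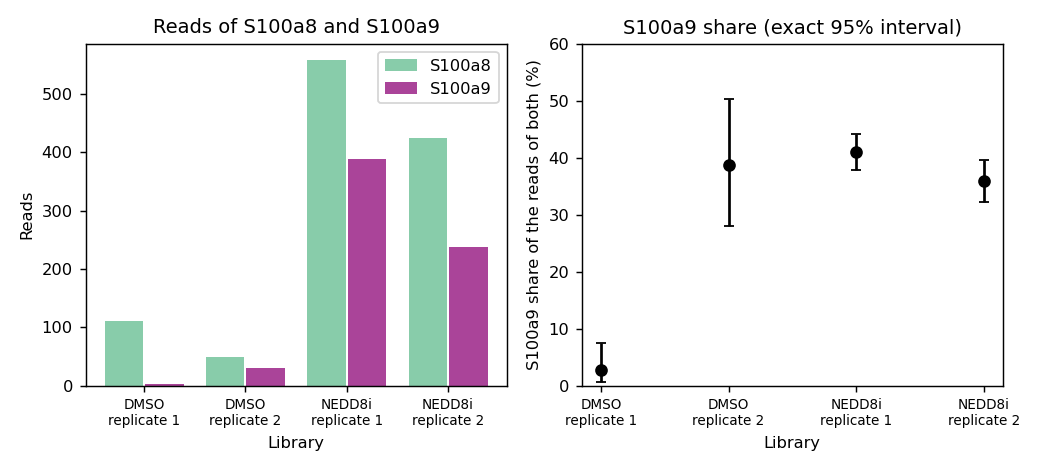
Left, reads of S100a8 and S100a9 in each library; right, the S100a9 share of the reads of both genes in percent with its exact 95% binomial interval. The share is 2.65% in DMSO replicate 1 and 35.9% to 41% in the other libraries.

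Neutrophils carry large amounts of both calprotectin subunits. Of 12 neutrophil markers, Ly6g, Camp, Ltf, Ngp, Mpo and Elane had 0 reads in all 4 libraries, and Csf3r, Mmp8 and Retnlg had at most 5 reads in any. The summed level of the list was 24.8 and 23.5 CPM in DMSO replicates 1 and 2 against 36.6 and 25.6 CPM in NEDD8i replicates 1 and 2, most of it from Il1r2, which had 83 to 201 reads and encodes a decoy receptor for IL-1. The other markers with reads were the chemokine receptor gene Cxcr2, with 11 and 33 in DMSO and 75 and 44 after NEDD8i, and Mmp9, with 41 and 13 against 10 and 5. None of these 3 tested genes passed in edgeR, with log2 fold changes of 0.46 for Il1r2, 0.97 for Cxcr2 and -2.15 for Mmp9. Monocyte and macrophage markers, 10 genes, summed to 26.5 and 18.4 CPM in DMSO and 38.2 and 31.8 CPM after NEDD8i, with 0 of 6 tested genes past the threshold and a median log2 fold change of 0.85. Langerhans and T cell markers, 8 genes, were at 207 and 170 CPM in DMSO and at 321 and 295 CPM after NEDD8i. Of these 0 of 8 passed the threshold, with a median log2 fold change of 0.07. Epcam alone held 97.6 and 74.2 CPM of the sums in DMSO replicates 1 and 2. In NEDD8i replicates 1 and 2 it held 153 and 139 CPM. Epcam, Cd74, Cd207 and H2-Aa had positive values (0.33 to 1.57) and the T cell genes Cd3e, Cd3g, Cd3d and Trdc negative ones (-0.85 to -0.19). The part of these cells in the S100a8 and S100a9 values was not tested.

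RefSeq start windows were matched for 8 of the 10 members, all but S100a10 and S100a14, and the stretches around those of S100a8, S100a9 and S100a11 are printed here, the first pair because these genes had the largest fold changes and S100a11 because it alone held repeated AP-1 letters. Each runs 5′ to 3′ on the gene's strand from 250 bases before to 30 bases after the start, on GRCm38.p6, with motif matches in capitals.
S100a8 (chr3:90668821-90669100, plus strand): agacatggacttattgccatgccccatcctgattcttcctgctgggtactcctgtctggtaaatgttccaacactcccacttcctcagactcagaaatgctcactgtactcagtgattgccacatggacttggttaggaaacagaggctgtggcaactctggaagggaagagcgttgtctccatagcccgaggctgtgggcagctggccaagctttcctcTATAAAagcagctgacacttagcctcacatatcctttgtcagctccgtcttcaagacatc
S100a9 (chr3:90695692-90695971, minus strand): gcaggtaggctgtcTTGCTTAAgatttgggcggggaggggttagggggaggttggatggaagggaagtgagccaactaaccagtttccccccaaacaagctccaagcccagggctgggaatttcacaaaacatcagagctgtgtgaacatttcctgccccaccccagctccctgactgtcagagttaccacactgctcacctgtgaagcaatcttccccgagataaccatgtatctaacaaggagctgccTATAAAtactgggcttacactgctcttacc
S100a11 (chr3:93520246-93520525, plus strand): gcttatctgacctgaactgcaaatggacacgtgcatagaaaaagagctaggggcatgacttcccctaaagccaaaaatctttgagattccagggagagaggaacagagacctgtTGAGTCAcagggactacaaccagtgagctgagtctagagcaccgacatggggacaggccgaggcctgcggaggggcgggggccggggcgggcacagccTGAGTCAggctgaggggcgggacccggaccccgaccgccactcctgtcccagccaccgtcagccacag
The motifs searched on both strands, with the share of all 32851 windows of 280 bases that hold them, were AP-1 as TGANTCA (7.46%), C/EBP as TTGCNNAA (10.4%), NF-kB as GGANTTTCC (1.17%), STAT as TTCNNNGAA (7.83%) and TATA as TATAAA (13.1%), and no 2 matches overlapped in the members' windows. S100a8 held a TATA match 30 bases before its start, and S100a9 held one that opens at the annotated start itself, with a C/EBP match 236 bases before it. The S100a11 window had AP-1 matches 136 and 38 bases before the start. In the other members a TATA match lay 31 bases before the S100a4 start and an AP-1 match 192 bases before 1 of the 2 S100a16 starts, and those letters were not found in the windows of S100a1, S100a6 or S100a13. A match is a description of the letters only.

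S100a10 and S100a11 bind annexins. S100a10 encodes p11, which no longer binds calcium and holds annexin A2 in a tetramer under the plasma membrane. S100a10 (ENSMUSG00000041959.15, chromosome 3, 93462387 to 93471950, plus strand) was at 83.7 and 152 CPM in DMSO replicates 1 and 2 against 319 and 284 CPM in NEDD8i replicates 1 and 2. The groups did not overlap, and the NEDD8i libraries were close to each other. Its log2 fold change of 1.36 (SE 0.36, 95% interval 0.54 to 2.17) missed the threshold (edgeR adjusted p = 0.122). It passed with DESeq2 (adjusted p = 0.00677), with no filter (edgeR adjusted p = 0.00323), without DMSO replicate 1 (0.98, edgeR adjusted p = 0.0332) and, when DMSO replicate 2 was dropped instead, at 1.87 (edgeR adjusted p = 9.85e-05). Over the 14 alternatives its adjusted p ran from 9.85e-05 to 0.673.

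S100a11, whose protein binds annexin A1 and is cross-linked into the cornified envelope, was at 142 and 261 CPM in DMSO replicates 1 and 2 against 405 and 304 CPM in NEDD8i replicates 1 and 2. The lower NEDD8i value was only slightly above the higher DMSO value. The log2 fold change was 0.81 (SE 0.37, 95% interval -0.03 to 1.66) and did not pass (edgeR adjusted p = 0.322). Leaving out DMSO replicate 1 gave 0.43, and leaving out DMSO replicate 2 gave 1.34, which passed (edgeR adjusted p = 0.00847, range over 14 alternatives 0.00847 to 0.92). S100a10 and S100a11 were both lowest in DMSO replicate 1, the library that also had the lowest basal keratinocyte sum and the most hair RNA, and the part of these in the values was not tested.

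S100a6, calcyclin, was the most abundant member per length and ranked 27 of all tested genes by mean log2 CPM. The gene (ENSMUSG00000001025.9, chromosome 3, 90520189 to 90521721, plus strand) had 6711 and 4634 counts in DMSO replicates 1 and 2 against 17047 and 11605 in NEDD8i replicates 1 and 2. In CPM these were 956 and 836 against 2109 and 1389, with no overlap. The log2 fold change was 0.97 (SE 0.35, 95% interval 0.17 to 1.76, edgeR adjusted p = 0.219), so a near doubling was measured that did not pass. Without DMSO replicate 1 it passed at 1.05 (edgeR adjusted p = 0.0231, range over 14 alternatives 0.0231 to 0.906).

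S100a14 and S100a16 encode epithelial S100 proteins with weak calcium binding. S100a14 was at 734 and 722 CPM in DMSO replicates 1 and 2 against 1210 and 839 CPM in NEDD8i replicates 1 and 2, and S100a16 at 160 and 190 CPM against 239 and 205 CPM. In both genes the groups were apart, though by less than the distance between the NEDD8i libraries. Neither passed, with log2 fold changes of 0.49 (SE 0.33, 95% interval -0.26 to 1.25, edgeR adjusted p = 0.519) and 0.34 (SE 0.30, 95% interval -0.33 to 1.01, edgeR adjusted p = 0.633).

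The remaining 3 members overlapped between groups. S100a4, a motility protein that binds non-muscle myosin and is also made by fibroblasts and leukocytes, was at 88.2 and 64.2 CPM in DMSO replicates 1 and 2 against 92.8 and 68.7 CPM in NEDD8i replicates 1 and 2. Its log2 fold change was 0.08 with a 95% interval of -0.62 to 0.78, and its sign turned with library totals in place of TMM (-0.16), when DMSO replicate 2 was left out (-0.11) and when NEDD8i replicate 1 was (-0.13). Fibroblast markers summed to 57.1 and 8.48 CPM in DMSO and 37.1 and 74.2 CPM after NEDD8i. Dcn alone held 49.1 CPM of the sum in DMSO replicate 1, against 1.62 CPM in DMSO replicate 2. Over the 6 tested fibroblast genes the median log2 fold change was 2.23, with Dcn and Col6a1 negative. S100a13, which helps export FGF1 from cells, was at 15.5 and 8.30 CPM against 18.8 and 12.7 CPM, a log2 fold change of 0.40 with a 95% interval of -0.54 to 1.33. S100a1, a calcium sensor of striated muscle, was at 11.1 and 2.89 CPM against 8.17 and 6.22 CPM, a log2 fold change of 0.02 with a 95% interval of -1.30 to 1.35. The sign for S100a1 turned with RLE factors, with library totals, without the ribosomal RNA genes, and when DMSO replicate 2 (-0.61) or NEDD8i replicate 1 (-0.16) was left out. Both S100a1 and S100a13 were highest or second highest in DMSO replicate 1, the hair-rich library. Skeletal muscle markers, 8 genes, summed to 21.8 and 27.4 CPM in DMSO and 27.6 and 38.2 CPM after NEDD8i. The part of hair and muscle in the S100a1 and S100a13 values was not tested.

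**Figure D3:**
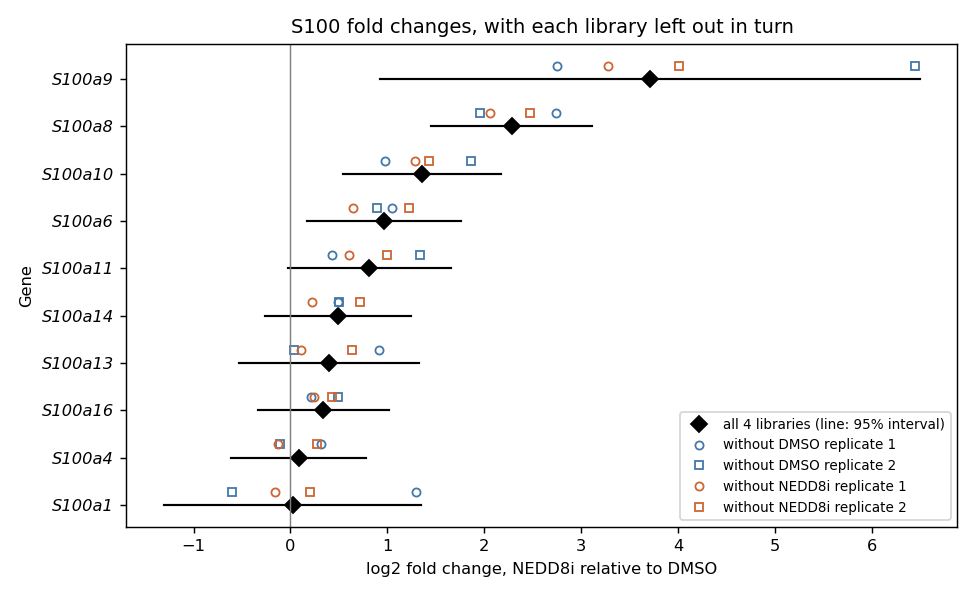
Log2 fold change of NEDD8i relative to DMSO for each S100 gene, with all 4 libraries (diamond, line for the 95% interval) and with each library left out in turn (open symbols). S100a9 ranges from 2.75 to 6.45 and S100a1 from -0.61 to 1.30, while S100a8 stays between 1.95 and 2.75.

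Per length, the members spanned a wide range of levels. The order in DMSO, by mean CPM per kilobase of summed exon length, was S100a6 at 1107 ± 105, S100a14 at 668 ± 8.23, S100a11 at 394 ± 165, S100a4 at 153 ± 34, S100a10 at 147 ± 60, S100a16 at 122 ± 14.5, S100a8 at 25.2 ± 9.93, S100a13 at 16.7 ± 7.14, S100a1 at 10.1 ± 8.38 and S100a9 at 5.77 ± 7 (SD, n = 2 each). Neighbours from S100a4 to S100a16 overlapped in their libraries, as did those from S100a8 down to S100a9. After NEDD8i the top 3 kept their order, with S100a14 and S100a11 overlapping, and S100a10 came next at 376 ± 31.4 CPM per kilobase. S100a9 moved from the last place to the eighth, at 73.2 ± 26.6, above S100a13 at 22 ± 6.05 and S100a1 at 10.4 ± 1.98 with no overlap. A 3′ tag method counts transcript ends, so length scaling may not be needed. Without it the order in DMSO among the middle members was S100a16 (175 CPM), S100a10 (118 CPM) and S100a4 (76.2 CPM), the reverse of their order per kilobase, and the other members kept their places.

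Among the members, the largest fold changes lay at the far end of the gene cluster. Within 184688 bases lie 8 members, in the order S100a1, S100a13, S100a14, S100a16, S100a4, S100a6, S100a8 and S100a9, and their log2 fold changes in that order were 0.02, 0.40, 0.49, 0.34, 0.08, 0.97, 2.28 and 3.71. S100a8 and S100a9, at 1 end and 22596 bases apart on opposite strands, had the largest values. S100a1 and S100a13 start 42 bases apart on opposite strands and their RefSeq start windows share 164 bases, and neither passed. The other 2 members, S100a11 and S100a10, lie 2824766 bases further on, past the cornified envelope genes. Among the 8 clustered members 2 other genes were tested and 0 were called. They were S100a3, between S100a16 and S100a4, and S100a7a, between S100a6 and S100a8. Their log2 fold changes were -3.78 (SE 3.62) and 0.24 (SE 1.32), so values did not rise steadily along the whole cluster. In the gap before S100a11 41 genes were tested, of which 11 were higher and 2 lower, against 0.667% and 0.114% of all tested genes. The higher ones were Lce3c, Lce3d, Lce3f, Sprr1a, Sprr2d, Sprr2e, Sprr2f, Sprr2g, Sprr2h, Sprr2i and 2310046K23Rik, and the lower ones Flg2 and Lor. These genes were listed after their values were seen. Exons of S100a4 share 302 of their 498 bases with the gene model Gm42674, which had 0 reads in all 4 libraries. How reads in shared bases were counted is not given, so the S100a4 levels may be too low. No other member shares exon bases with another counted gene.

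Among the other S100 genes 0 of 3 tested passed in either direction, with a median log2 fold change of 0.23, and 4 had too few reads (at most 8). S100a3, a protein of the hair cuticle, had 2754 and 2 counts in DMSO replicates 1 and 2 against 22 and 216 in NEDD8i replicates 1 and 2, so that DMSO replicate 1 held the most and NEDD8i replicate 2 came after it, as with the hair marker sum. The lowest 2 libraries stood in the opposite order to that sum. The value of -3.78 on the log2 scale, with an SE of 3.62 (edgeR adjusted p = 0.721), turned to 5.24 without DMSO replicate 1. S100a7a, the mouse relative of psoriasin, had 48 and 0 counts against 37 and 31, so that only DMSO replicate 2 was low. It had a log2 fold change of 0.24 with an SE of 1.32 (edgeR adjusted p = 0.952), and of 7.93 without DMSO replicate 1, where the DMSO group is at 0 and the fitted value is no bound.

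The fused-type S100 genes, whose long repeat proteins open with an S100 domain, mostly had negative values where the members had positive ones. Of 7 tested, 0 rose, 1 fell and 6 did not pass, with 6 of the 7 log2 fold changes negative and a median of -2.34. Flg2, which encodes filaggrin 2, a barrier protein of the upper epidermis, fell from 160 and 90.6 CPM in DMSO replicates 1 and 2 to 6.56 and 12.8 CPM in NEDD8i replicates 1 and 2 (log2 fold change -3.69 with SE 0.44; edgeR adjusted p = 0.0128), and it passed under all 14 alternatives. Flg and Hrnr, singled out after their values were seen, missed the threshold narrowly (edgeR adjusted p = 0.0548 for each). In each, both NEDD8i libraries lay below both DMSO libraries. Flg was at 241 and 501 CPM in DMSO replicates 1 and 2 and at 53.1 and 93.2 CPM in NEDD8i replicates 1 and 2. Its log2 fold change was -2.34. Hrnr, with a value of -1.76, was at 121 and 129 CPM against 27.3 and 46.4 CPM. With DESeq2, no filter and the replicate number as a block 3 of the 7 were lower, where 0.698%, 1.35% and 0.94% of all genes were. Dropping DMSO replicate 1 gave 3 lower and 2 higher, against 4.81% and 5.62% of all genes. Dropping DMSO replicate 2 gave 6 lower and 1 higher, against 5.61% and 5.09%. Tchh, Tchhl1 and Crnn, 3 of the 6 negative values, were highest in the hair-rich library, with 25617, 697 and 81 counts in DMSO replicate 1 against 83, 1 and 0 in DMSO replicate 2. The difference between the fused-type genes and the members was not tested.

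Partners and receptors gave no call. Of 11 tested annexins, transglutaminases and other partners 0 passed (median log2 fold change 0.21, 6 positive and 5 negative). Anxa2, the partner of S100a10, was at 767 and 1429 CPM in DMSO replicates 1 and 2. In NEDD8i replicates 1 and 2 it was at 1762 and 1528 CPM. Within each group Anxa2 had the same library order as S100a10, an order that the basal keratinocyte marker sum had as well. The log2 difference of 0.58 had an SE of 0.38 (edgeR adjusted p = 0.509), and without DMSO replicate 2 it passed at 1.12 (edgeR adjusted p = 0.0315, range over 14 alternatives 0.0315 to 0.962). Ahnak, a scaffold held by the annexin A2 and S100A10 complex, stood at -0.02 (SE 0.35, edgeR adjusted p = 0.984), with a sign that differed between alternatives. Of 7 tested receptors and adaptors for extracellular S100 proteins 0 passed (median 0.28). Myd88, the adaptor of Toll-like receptors, was at 24.5 and 27.4 CPM in DMSO and 52.3 and 65.5 CPM after NEDD8i, with no overlap. Its log2 fold change was 1.18 with an SE of 0.29 (edgeR adjusted p = 0.0994). It passed with the replicate number as a block (edgeR adjusted p = 0.0451), with DESeq2, with no filter and without either DMSO library, and the range over 14 alternatives was 0.00517 to 0.642. Nptn, which encodes neuroplastin, a receptor for S100A8, stood at 0.41 (SE 0.29, edgeR adjusted p = 0.533). The receptors Ager (RAGE) and Tlr4 had at most 4 reads in any library and were not tested. Cd14, a co-receptor of Tlr4 singled out after its values were seen, had 0 reads in both DMSO libraries (a count of 0 leaves room for 0.427 and 0.541 CPM), and 67 and 5 in NEDD8i replicates 1 and 2, so that 1 library held nearly all of its reads.

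Regulators of calprotectin and their upstream cytokine receptors gave 0 of 12 tested past the threshold. Of their log2 fold changes 10 were positive and 2 negative, with a median of 0.44. DESeq2, no filter and the replicate block each called 1 of the list higher, against 0.961%, 1.63% and 1.6% of all genes. Il1rl2, singled out after its values were seen, had the largest value, 1.35 (edgeR adjusted p = 0.0897). It was at 25.5 and 25.1 CPM in DMSO replicates 1 and 2 against 77.9 and 50.9 CPM in NEDD8i replicates 1 and 2. Cebpb, a transcription factor of keratinocyte differentiation and inflammation, was at 120 and 125 CPM in DMSO replicates 1 and 2 against 198 and 277 CPM in NEDD8i replicates 1 and 2. The groups were apart by 0.95 on the log2 scale, with an SE of 0.31 (edgeR adjusted p = 0.18). Without DMSO replicate 1 it passed at 0.91 (edgeR adjusted p = 0.0499, range over 14 alternatives 0.0499 to 0.849). Klf4, a factor of barrier formation and the most abundant gene of this list, stood at 0.27 (SE 0.32, edgeR adjusted p = 0.737). Receptor genes for IL-17 were detected, with Il17ra at 48 to 153 reads and Il17rc at 92 to 241, while the IL-22 receptor gene Il22ra1 had at most 4 reads and Il10rb had 0 reads in every library.

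**Figure D4:**
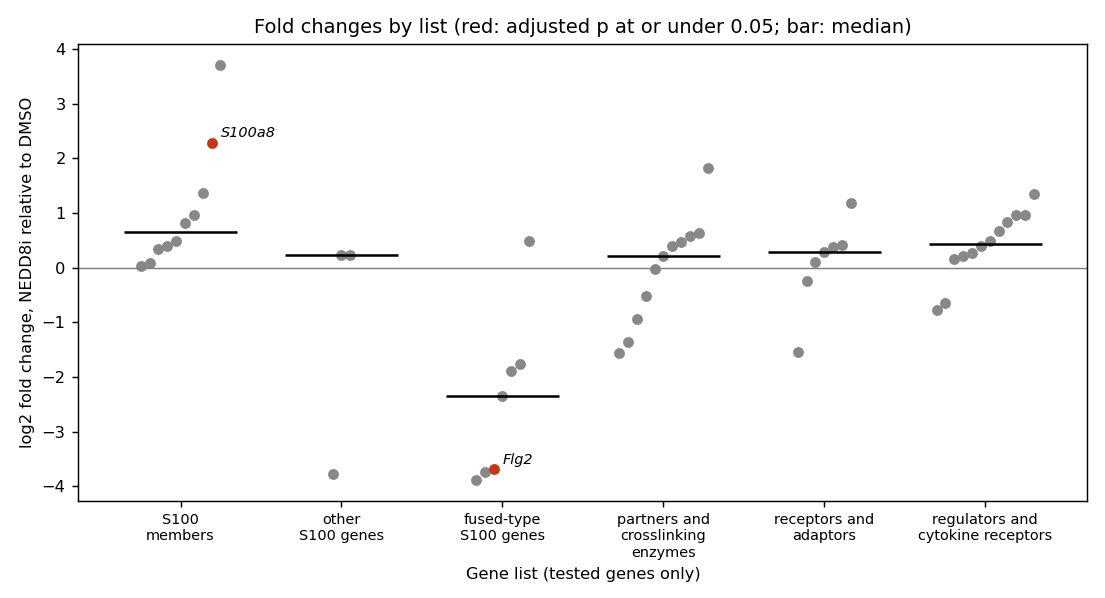
Log2 fold change of NEDD8i relative to DMSO for the tested genes of the S100 group and of the 5 related lists, each point 1 gene, with the list's median as a bar and genes past an adjusted p of 0.05 in red. S100a8 and Flg2 are the called genes, in opposite directions, and the medians run from -2.34 for the fused-type genes to 0.65 for the S100 group.

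The genes most like S100a8 and S100a9 were ranked by the Euclidean distance between log2 CPM profiles over the 4 libraries, each centred on its own mean, among genes with a mean log2 CPM of at least 2. For S100a8 these were Cyrib (0.23), Eef1e1 (0.36), Zfp593 (0.37), Fosl1 (0.46), the AP-1 subunit, and Guca2a (0.49), which encodes guanylin. For S100a9 they were Sprr1b (0.75), a cornified envelope precursor, the wound keratin genes Krt6b (1.25) and Krt16 (1.36), the gene model Gm42679 (1.31) and the membrane protease gene Adam8 (1.33). All 5 of the latter were lower in DMSO replicate 1 than in DMSO replicate 2, as S100a9 was, while the 5 like S100a8 were higher there. The genes were picked by likeness over these same libraries, so this order follows from the choice and is no separate result. The other member nearest to S100a8 was S100a6 (1.44), and S100a9 lay 3.33 away from its partner S100a8. With 4 libraries this likeness is a description and has no test.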

How the data were processed

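Skin RNA from 4 samples was sequenced as 3′ tag libraries. The authors deposited raw read counts per gene with summed exon length, per the file headers in the layout of featureCounts. STAR, featureCounts and DESeq2, without versions or settings, and the builds GRCm38 and GRCm39 are named in the submitters' processing notes. Only 2.7% of 52029 genes had the start that GENCODE M21 (GRCm38) gives them, so deposited coordinates are taken to be GRCm39, and start-site sequences (RefSeq, GRCm38.p6) were kept apart from them. Strand setting and the handling of reads that fit several genes are not given in the sources used here.

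Columns were matched to samples by name, and no 2 libraries agreed within sampling noise (chi-square over degrees of freedom from 24.1 to 68.5). By that measure the DMSO libraries differed more from each other (34.5) than DMSO replicate 2 did from NEDD8i replicate 2 (30.5). The Pearson correlation of log2 CPM was 0.870 within DMSO and 0.943 within NEDD8i. For DMSO replicate 2 it was 0.886 with NEDD8i replicate 1 and 0.887 with NEDD8i replicate 2, so the groups did not separate fully. Counts were tested in R 4.3.3 with edgeR 4.0.16 across all genes: filterByExpr (minimum count 10, minimum total 15), TMM, robust quasi-likelihood F test, Benjamini-Hochberg adjustment at 0.05, group alone in the model. Log2 CPM used a prior count of 2. Intervals are at 95%, and the floor is 3 counts per library.

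The members and all lists were chosen with earlier results of these data known. From each of 5 related lists up to 4 genes past the threshold were named or, where none passed, the 2 most abundant, and for S100a8 and S100a9 the 5 nearest genes. Other list genes named with their reads or levels were singled out after their values were seen. Alternatives were DESeq2 1.42.0, limma-voom (limma 3.58.1), other scaling and filters, no robust option, no ribosomal RNA genes, a block for the replicate number, and leaving out single libraries. A crossed block was added once the data had been seen. Scripts were tested on simulated counts.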

Additional observations from a re-analysis of the deposited data

How the results depend on the processing

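Each result was recomputed under 14 alternatives. Of the 140 values of the S100 genes, 118 kept their sign and their side of the threshold, 4 (all S100a8) lost the call, 10 gained one and 8 changed sign, the last only for S100a1 and S100a4. Members past the threshold, 1 with the fit reported, numbered 2 with DESeq2 (S100a8 and S100a10), 0 with limma-voom, 0 with library totals without TMM, 3 with no filter (S100a8, S100a9 and S100a10) and 0 without the robust option, and ranged from 0 to 4 with each library left out. Without NEDD8i replicate 1 there were 0, without NEDD8i replicate 2 S100a8 alone, and 4 without either DMSO library. None of the members was called lower in any of these fits.

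The same settings moved the count over all genes, 89 in the fit reported (76 higher and 13 lower), to 392 with DESeq2, 27 with limma-voom, 47 with library totals, 703 with no filter, 48 without the robust option and 44 to 1358 with a library left out (NEDD8i replicate 1 gives 44 and NEDD8i replicate 2 gives 46, DMSO replicate 1 gives 1285 and DMSO replicate 2 gives 1358). As a share of the genes in the fit, the calls were 1.66% of 23633 with DESeq2 and 2.97% of 23633 with no filter. Of 11388 genes they were 0.237% with limma-voom, 0.413% with library totals and 0.421% without the robust option. The fit reported had 0.782% of 11388. Library totals without TMM shifted the median log2 fold change of all genes from -0.003 to -0.22 and that of the members from 0.65 to 0.45. Signs turned for S100a1 with RLE factors (-0.0023), library totals (-0.26) and no ribosomal RNA genes (-0.0082), with -0.61 to 1.30 over libraries left out, and for S100a4 with library totals (-0.16), with -0.13 to 0.32 over libraries left out. S100a7a was at -0.076 with library totals and at -0.70 to 7.93 over libraries left out, and S100a3 at -6.18 to 5.24. Ahnak was at 0.014 with limma-voom, 0.0096 with no filter, 0.020 with either block and -0.34 to 0.39 over libraries left out. The cause of these moves was not tested.

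The replicate numbers do not pair the samples by any label, and deviations of same-numbered libraries had a correlation of -0.13 across genes. With the replicate block 289 genes passed and S100a8 remained the 1 member (log2 fold change 2.32). With the crossed block, added after seeing the data, 493 genes and 2 members passed. With 2 libraries a group, S100a9 at 3 reads in DMSO replicate 1 and S100a1 at 16 in DMSO replicate 2 are limited by depth as well.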
